A study of Mus musculus with 8 samples.

Results

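The report concerns 39 genes of glycolysis and of the hypoxia response, measured by RNA sequencing in endothelial cells (ECs) from the brains of P9 mouse pups. They were chosen by symbol, as 22 genes of glycolysis and its regulation and 17 genes of oxygen sensing and its targets, out of 49315 gene identifiers in the deposited counts. All 39 were found, and all 39 passed the filter on low counts that left 16887 genes to test. The question was how these genes differed between ECs of pups that express MAP2K1 K57N and ECs of wild-type littermates, and whether the glycolytic enzymes and the hypoxia response genes differed alike.

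The 4 Mutant libraries came from pups of genotype R26 GT-Map2k1-GFP/+; Tg-Cdh5CreER+/-. In these pups tamoxifen, given to Mutant and control pups alike at P1, activates a Cre recombinase driven by the endothelial *Cdh5* promoter, which removes a stop cassette at the Rosa locus and lets a CAG promoter drive a *Map2k1* cDNA carrying K57N, followed by GFP. MAP2K1 is the kinase that phosphorylates ERK, and this substitution makes it overactive. The pups develop vascular malformations of the brain, and the paper also describes retarded growth and bleeding into the brain at P9. The 4 Wild type libraries came from littermate controls without the change, on the same C57BL/6J background. Each library holds the ECs of 1 pup, taken from the digested brain with beads that bind CD31. Cre had recombined the allele in only a share of the ECs, so a Mutant value averages recombined and unrecombined cells. No group expressed unmutated MAP2K1 from the same locus, so the substitution and the added kinase cannot be told apart here. The labels also name no group with Cre or GFP alone, so effects of these cannot be told apart from those of the kinase.

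Glycolysis turns glucose into pyruvate in a chain of enzyme reactions, and lactate dehydrogenase then interconverts pyruvate and lactate; ECs draw much of their ATP from it. Many of these enzymes are also targets of the hypoxia-inducible factors (HIFs), transcription factors made of an oxygen-regulated alpha subunit and a stable partner. When oxygen is present, prolyl hydroxylases of the Egln family mark the alpha subunit, the Vhl protein binds the mark, and the subunit is destroyed. The mRNA levels described here do not measure that step, which acts on the protein.

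The libraries held 24833373 to 34196955 counts in Mutant ECs and 28146348 to 32208421 in wild-type ECs. The targeted gene checked the labels: *Map2k1* had 14582 ± 2844 normalized counts in Mutant ECs and 1607 ± 116 in wild-type ECs (SD, n = 4 each), 9.07-fold higher in the fit, with the transgene's transcripts included in the count. Fold changes are those fitted by edgeR, which can differ slightly from the ratio of the printed means. Normalized counts are counts scaled by edgeR's TMM factors to the mean library size. Endothelial markers dominated the marker lists, with summed levels of 11262 to 13434 CPM (counts scaled to a fixed library total) in Mutant ECs and 10738 to 12912 in wild-type ECs. Of the 10 endothelial genes, 3 were called higher and 3 lower. Markers of other cells were far lower in sum and partly moved with genotype. The fibroblast sums overlapped (1060 to 1372 against 934 to 1236 CPM), with 2 of 6 genes higher and 2 lower. The pericyte and smooth muscle sums also overlapped (742 to 1266 against 702 to 1306 CPM), with 3 of 10 genes higher. The microglia and macrophage sums did too, with 0 of 8 genes called. The oligodendrocyte markers were lower for 8 of 8 genes (44.5 to 79.5 against 116 to 320 CPM), the neuronal markers for 6 of 9 tested (24.5 to 34.3 against 46.7 to 104 CPM, with *Gabra6* at 0 in every Mutant library) and the red blood cell markers for 7 of 7 (89.4 to 287 against 535 to 928 CPM). The astrocyte marker sum was higher in every Mutant library (632 to 755 against 420 to 487 CPM), although 1 of its 8 genes, *Gja1*, was called higher and 3 were called lower. Of 12 genes that respond to tissue dissociation, 9 were lower (5252 to 8785 against 10868 to 13924 CPM). For comparison with these counts, 22.9% of all genes tested were called lower and 21.5% were called higher. In bulk samples such as these, fewer cells of a type and less RNA per cell cannot be told apart.

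Of the 39 genes, 21 were higher in Mutant ECs, 8 were lower and 10 were not called, by the quasi-likelihood test of edgeR at an adjusted p below 0.05 (Benjamini-Hochberg, over all genes tested). The background for this comparison was high, since 44.4% of all genes tested were called, 21.5% as higher and 22.9% as lower. Against it, 53.8% of the 39 genes were higher and 20.5% were lower. The median log2 fold change was 0.34 over the 39 genes and -0.02 over all genes tested. A change of more than 2-fold was called for 5 of the 39 genes, all higher, where 14.0% of all genes tested passed that rule (5.90% higher and 8.05% lower). These were *Hif3a*, *Egln3*, *Pgk1*, *Pkm* and *Car9*. The 4 Mutant libraries all lay above the 4 wild-type libraries for 18 genes and all below for 8, where the background was 20.6% and 21.9%.

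**Figure D1:**
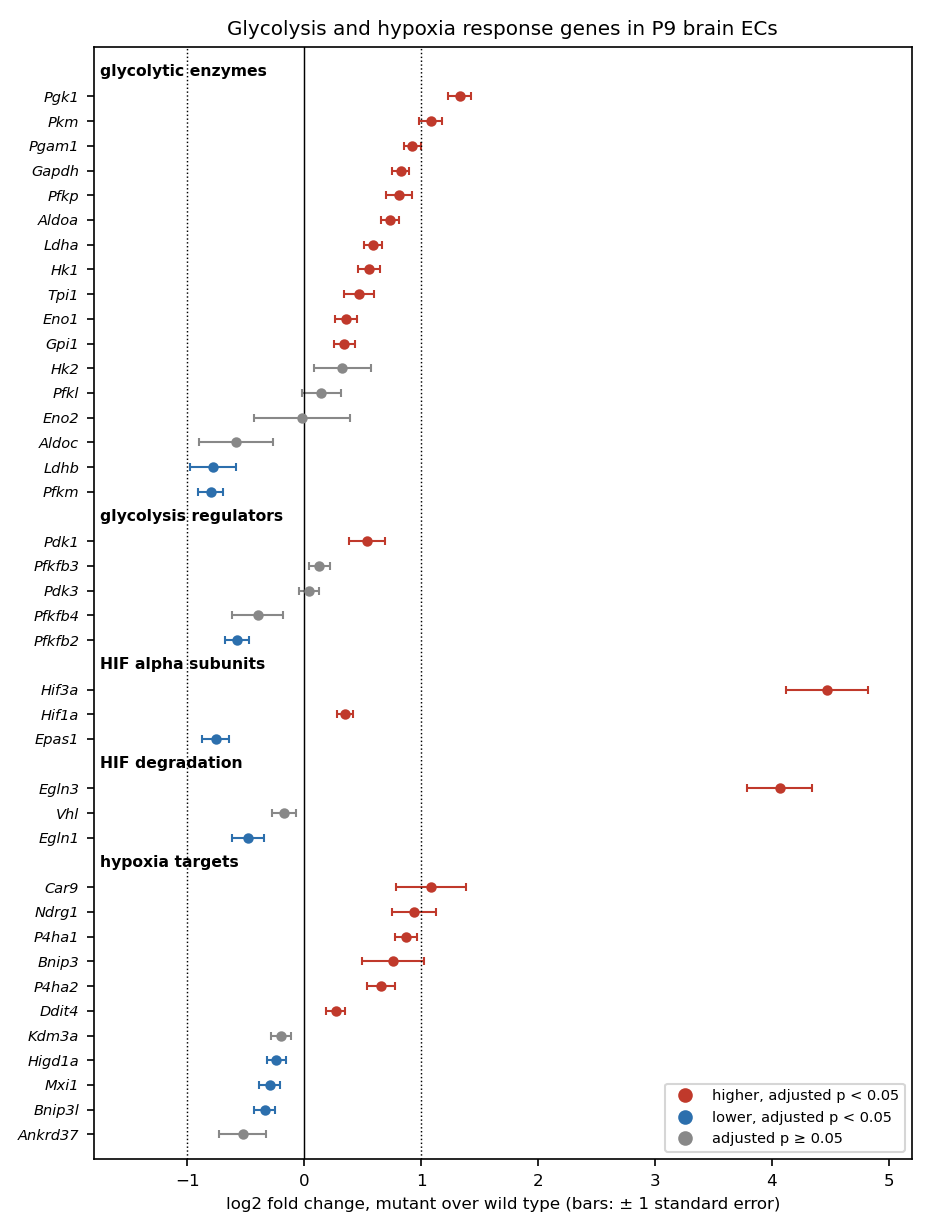
Log2 fold change (Mutant against wild type, x axis) of each of the 39 genes, grouped by role, with bars for the standard error and colour for the call at adjusted p below 0.05; n = 4 libraries a group. *Hif3a* at 4.47 and *Egln3* at 4.07 stand far to the right of all others, while *Pfkm* at -0.80, *Ldhb* at -0.78 and *Epas1* at -0.76 are the lowest of the called genes.

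The glycolytic group and the hypoxia group had a similar share of higher genes and differed in the spread of their changes. In glycolysis, 12 of 22 genes were higher (54.5%), 3 were lower (13.6%) and 7 were not called, with a median log2 fold change of 0.35 and a range of -0.80 to 1.33. In the hypoxia response, 9 of 17 genes were higher (52.9%), 5 were lower (29.4%) and 3 were not called, with a median of 0.27 and a range of -0.76 to 4.47. The log2 fold change was positive for 16 of 22 glycolytic genes and for 9 of 17 hypoxia genes. The hypoxia median was the value of *Ddit4*, and the next lower value was -0.17 (*Vhl*), so this median is unstable. More than 2-fold higher were 2 glycolytic genes and 3 hypoxia genes. The difference between the groups was not tested. Within glycolysis the enzymes held nearly all of the higher genes, with 11 of 17 against 1 of 5 regulators. The summed level of the 17 enzymes, in RPKM (reads scaled for both transcript length and depth), was 1327 to 1580 in Mutant libraries and 798 to 911 in wild-type libraries, with no overlap.

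The hypoxia group is described first, from the factors themselves. The HIF alpha subunits moved in different directions: *Hif3a* and *Hif1a* were higher in Mutant ECs, and *Epas1*, which encodes the alpha subunit typical of endothelium, was lower. *Hif1a* (chr12:73901375-73947530, plus strand, GRCm38), which encodes the broadly used alpha subunit, had 5236, 5893, 5137 and 5565 normalized counts in Mutant libraries 1 to 4 and 4155, 4260.1, 4158 and 4571 in wild-type libraries 1 to 4. The groups did not overlap, and the difference was modest, 1.27-fold (log2 fold change 0.35, SE 0.07, adjusted p = 0.00237).

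*Epas1* (chr17:86753907-86833410, plus strand) was by far the most abundant of the 3 subunits. It had 40657, 49243, 42123 and 34864 normalized counts in the Mutant libraries and 73737, 75549, 60713 and 72223 in the wild-type libraries. All Mutant libraries were below all wild-type libraries, and the level was 1.69-fold lower (log2 fold change -0.76, SE 0.11, adjusted p = 0.000477). *Hif3a* (chr7:17031507-17062427, minus strand) encodes a less studied alpha subunit, some isoforms of which lack a transactivation domain and can oppose the others. Its normalized counts were 832, 1089.7, 658 and 443 in the Mutant libraries and 28.5, 43.1, 46.6 and 15.8 in the wild-type libraries. The lowest Mutant library was thus many times above the highest wild-type library, and the fitted level was 22.2-fold higher (log2 fold change 4.47, SE 0.35, adjusted p = 1.06e-05), the largest change among the 39 genes. Gene counts do not tell which isoform was made.

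Even after that rise *Hif3a* remained the rarest alpha subunit. Per transcript length, its level was 3.80 RPKM in Mutant ECs and 0.168 RPKM in wild-type ECs, against 265 and 448 for *Epas1*, and 31.2 and 24.5 for *Hif1a*. Of the summed RPKM of the 3 subunits, *Epas1* held 88.2% in Mutant ECs (86.7 to 89.1 over libraries) and 94.8% in wild-type ECs (94.1 to 95.1). The share of *Hif1a* was 10.5% (9.58 to 12.5) against 5.21% (4.83 to 5.81), and that of *Hif3a* 1.24% (0.871 to 1.56) against 0.0364% (0.0164 to 0.0571). The summed level of the 3 subunits was lower in Mutant ECs, 256 to 352 against 410 to 505 RPKM.

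**Figure D2:**
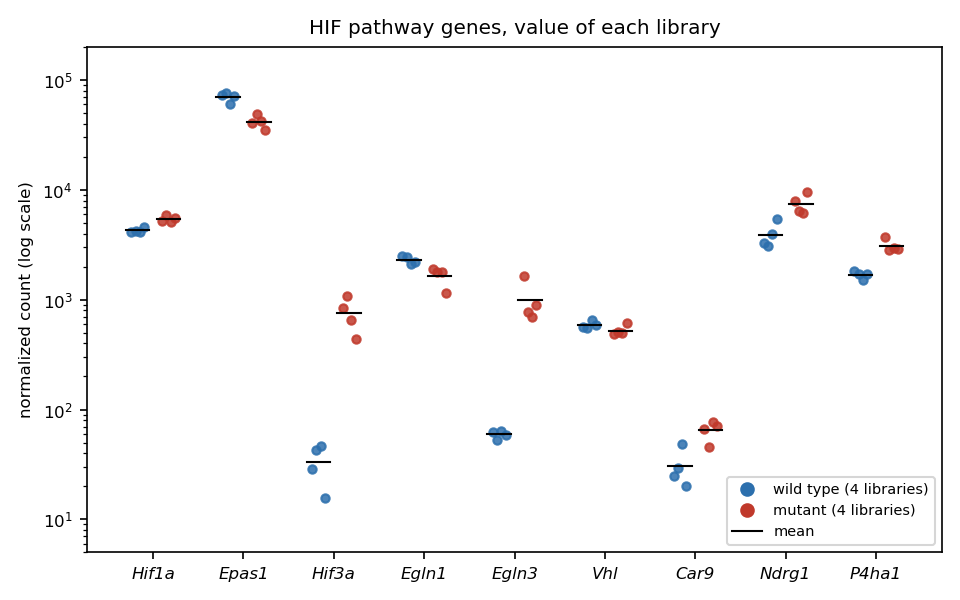
Normalized counts (log axis) in each of the 4 Mutant and 4 wild-type libraries for the 3 HIF alpha subunits, the 3 genes of their degradation and the targets *Car9*, *Ndrg1* and *P4ha1*; points are libraries and lines are group means. The fitted changes of *Hif3a* and *Egln3* are 22.2-fold and 16.8-fold, *Hif1a* lies slightly higher and *Epas1* and *Egln1* lower in Mutant ECs, and the *Vhl* groups overlap.

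The genes that control HIF degradation also moved apart. *Egln3* (chr12:54178981-54203860, minus strand) encodes a prolyl hydroxylase that is itself a well known HIF target. It had 1634, 772, 699.7 and 893 normalized counts in the Mutant libraries and 62.5, 52.5, 63.8 and 58.9 in the wild-type libraries. Mutant library 1 was the highest, and even the lowest Mutant library was far above all wild-type libraries; the fitted level was 16.8-fold higher (log2 fold change 4.07, SE 0.28, adjusted p = 4.77e-06). *Egln1* (chr8:124908587-124949324, minus strand) encodes the main oxygen sensor among these hydroxylases. It had 1891, 1806, 1776 and 1160.0 normalized counts in the Mutant libraries and 2475, 2452, 2111 and 2194 in the wild-type libraries, so the groups did not overlap. It was 1.39-fold lower (log2 fold change -0.48, SE 0.14, adjusted p = 0.0173), a call that was lost without wild-type library 1 (adjusted p = 0.0572) or 2 (adjusted p = 0.0534), and Mutant library 4 was lower than the rest. *Vhl*, which encodes the subunit that recognises the hydroxylated factor, had 484, 505, 494 and 611 normalized counts in the Mutant libraries and 566, 550.3, 656 and 587 in the wild-type libraries. These overlapped, and it was not called (log2 fold change -0.17, SE 0.10, adjusted p = 0.204).

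The makeup of the hydroxylase pair changed with these levels. *Egln3* held 44.0% ± 9.77 of the summed RPKM of *Egln1* and *Egln3* in Mutant ECs and 3.38% ± 0.461 in wild-type ECs (SD, n = 4 each). The groups did not overlap, which gave the smallest p a two-sided exact permutation test of 4 against 4 allows, 0.0286. Adjusted over the 9 paralog shares tested it was 0.0643, above the threshold of 0.05. In RPKM, *Egln3* rose from 0.753 to 12.7, while *Egln1* was 21.7 in wild-type and 15.6 in Mutant ECs.

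The promoters of both hydroxylase genes, of *Hif3a* and of *Pgk1* are shown because they include the 3 largest rises among the 39 genes (*Hif3a*, *Egln3* and *Pgk1*) and, in *Egln1*, a paralog that was lower. HIFs bind the core letters ACGTG or GCGTG. Each window runs from 250 bases before to 50 bases after the transcription start, 5′ to 3′ on the gene's strand, from RefSeq on GRCm38.p6. Capitals mark the core motif on either strand. The windows lie at chr7:17062378-17062677 (minus strand) for *Hif3a*, chr12:54203825-54204124 (minus strand) for *Egln3*, chr8:124949205-124949504 (minus strand) for *Egln1* and chrX:106186850-106187149 (plus strand) for *Pgk1*.
Hif3a: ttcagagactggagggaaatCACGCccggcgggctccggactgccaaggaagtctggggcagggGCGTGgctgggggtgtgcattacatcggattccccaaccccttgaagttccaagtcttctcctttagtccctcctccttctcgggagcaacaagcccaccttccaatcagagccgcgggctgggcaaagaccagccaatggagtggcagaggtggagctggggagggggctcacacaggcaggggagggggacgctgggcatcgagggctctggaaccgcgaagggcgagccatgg
Egln3: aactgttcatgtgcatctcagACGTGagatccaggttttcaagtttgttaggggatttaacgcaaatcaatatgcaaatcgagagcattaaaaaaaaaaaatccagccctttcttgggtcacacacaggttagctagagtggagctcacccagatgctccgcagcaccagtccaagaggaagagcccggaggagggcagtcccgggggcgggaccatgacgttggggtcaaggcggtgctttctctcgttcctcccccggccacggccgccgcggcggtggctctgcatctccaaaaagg
Egln1: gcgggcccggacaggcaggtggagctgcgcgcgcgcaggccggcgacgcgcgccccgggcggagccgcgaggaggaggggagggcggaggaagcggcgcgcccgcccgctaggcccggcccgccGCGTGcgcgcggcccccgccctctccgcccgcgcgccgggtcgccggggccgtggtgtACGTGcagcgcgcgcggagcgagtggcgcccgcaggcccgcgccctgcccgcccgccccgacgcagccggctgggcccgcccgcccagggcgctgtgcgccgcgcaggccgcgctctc
Pgk1: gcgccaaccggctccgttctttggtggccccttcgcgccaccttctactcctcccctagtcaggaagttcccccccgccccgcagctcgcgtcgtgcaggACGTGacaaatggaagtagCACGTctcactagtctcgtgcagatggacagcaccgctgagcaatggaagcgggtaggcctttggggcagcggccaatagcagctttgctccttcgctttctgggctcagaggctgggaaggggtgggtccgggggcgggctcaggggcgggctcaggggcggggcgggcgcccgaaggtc
The *Hif3a* window held 2 matches, 230 and 186 bases before the start, and the *Egln3* window 1 match, 229 bases before the start. The *Egln1* window, of a gene that was lower, also held 2, at 126 and 68 bases before the start, and the *Pgk1* window held 2, at 150 and 131 bases.

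Promoter entries covered 36 of the 39 genes, with 55 windows in all; *Bnip3l*, *Epas1* and *Ndrg1* had none. A core motif was in 43 of the 55 windows (78.2%), and in 14380 of 32851 windows of all genes (43.8%). By direction of change, the share was 78.6% for the 28 windows of 20 genes that were higher. It was 84.6% for the 13 windows of 6 genes that were lower, and 71.4% for the 14 windows of 10 genes that were not called. Some genes had several windows, and some of these overlapped, so windows are not independent of each other. ACGTG is also the inside of the E-box CACGTG, which other factors bind. The AP-1 letters TGANTCA, bound by factors downstream of ERK, were in 4 of the 55 windows (7.27%; 7.81% of all windows), and the ETS letters CCGGAAG in 3 (5.45%; 8.86%), both strands searched. A match of letters is a description of the window and not of a bound site.

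Among the 11 hypoxia targets, 6 were higher (54.5%, against 21.5% of all genes tested) and 3 were lower (27.3%, against 22.9%). The other 2 were not called, and the median log2 fold change of the targets was 0.27. Those that rose act in collagen hydroxylation, pH control, stress signalling and mitophagy. *P4ha1*, a catalytic subunit of the collagen prolyl hydroxylase of the endoplasmic reticulum, had 3698, 2822, 2973 and 2879 normalized counts in the Mutant libraries and 1815, 1701, 1519 and 1722 in the wild-type libraries. The groups were well apart, 1.83-fold (log2 fold change 0.87, SE 0.10, adjusted p = 8.02e-05). Its paralog *P4ha2* was 1.58-fold higher (log2 fold change 0.66, SE 0.12, adjusted p = 0.00152), with Mutant libraries at 233 to 308 and wild-type libraries at 174 to 180.0.

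*Ndrg1*, a stress-responsive gene and a classical hypoxia target, had 7973, 6391, 6112 and 9546 normalized counts in the Mutant libraries and 3249.7, 3084, 3934 and 5386 in the wild-type libraries. Replicate 4 was the highest of each group, and the groups did not overlap (1.92-fold higher; log2 fold change 0.94, SE 0.19, adjusted p = 0.00274). Oligodendrocytes also express *Ndrg1*, and their markers were lower in Mutant ECs. The part of these cells in the *Ndrg1* result was not tested. *Car9*, a membrane carbonic anhydrase that is low in most normal tissue, had only 66.9, 45.2, 77.4 and 71.2 normalized counts in the Mutant libraries and 24.8, 29.1, 48.3 and 19.99 in the wild-type libraries. Mutant library 2 was below wild-type library 3, so the groups overlapped, and the difference was called (2.12-fold higher; log2 fold change 1.08, SE 0.30, adjusted p = 0.0136).

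*Ddit4*, an inhibitor of mTORC1 signalling, was 1.21-fold higher (log2 fold change 0.27, SE 0.08, adjusted p = 0.0194), at 4351 to 4972 against 3407 to 4155 normalized counts; the call was lost without Mutant library 2 (adjusted p = 0.0520). *Bnip3*, a mitochondrial receptor for mitophagy, was higher on average (log2 fold change 0.76, SE 0.26, adjusted p = 0.0380), but the groups overlapped. Its Mutant values were 778, 432, 449.9 and 263 normalized counts and its wild-type values 297, 274, 257 and 306. Mutant library 4 was below 3 of the 4 wild-type libraries, and the call was lost on leaving out any of 7 libraries in turn (adjusted p 0.0545 to 0.0785).

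The related mitophagy receptor *Bnip3l* went the other way, at 3220.3 to 4079 against 4263 to 4979.6 normalized counts (log2 fold change -0.34, SE 0.09, adjusted p = 0.0117). It also serves in red blood cell maturation, and the red blood cell markers were lower in the same libraries; their part in the result was not tested. *Mxi1*, a Myc antagonist, and *Higd1a*, a mitochondrial protein, were slightly lower, with log2 fold changes of -0.30 (adjusted p = 0.0244) and -0.24 (adjusted p = 0.0318); both calls were lost on leaving out single libraries (adjusted p 0.0506 to 0.0714 without any of 5 libraries for *Mxi1*, and 0.0778 to 0.103 without any of 6 for *Higd1a*). *Ankrd37*, with 478 to 996 against 828 to 1126 normalized counts and a log2 fold change of -0.53, missed the threshold (adjusted p = 0.0576). *Kdm3a*, a histone demethylase, was not called either (log2 fold change -0.20, adjusted p = 0.0762). Both were called as lower with the prefix of the sample description as a block (*Ankrd37*: adjusted p = 0.0314; *Kdm3a*: adjusted p = 0.0461), which made 7 of the 17 hypoxia genes lower. The target genes thus had log2 fold changes of both signs, also within 1 family, as for *Bnip3* and *Bnip3l*. The calls of *Bnip3*, *Mxi1* and *Higd1a* depended on single libraries. At an adjusted p below 0.01 in the edgeR test, 1 of the 17 hypoxia genes was lower.

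In glycolysis the RPKM of paralogs were summed for each of 11 reactions, from hexokinase to lactate dehydrogenase. Of all single genes tested, 20.6% had every Mutant library above every wild-type library. No such share was computed for sums of paralogs. Among the reactions, the lowest Mutant library exceeded the highest wild-type library for 10. The exception was phosphofructokinase, at 66.3 to 101 RPKM in Mutant and 66.4 to 79.1 RPKM in wild-type libraries, a ratio of means of 1.13. The largest ratios were those of phosphoglycerate kinase (130 against 51.6 RPKM, ratio 2.52), pyruvate kinase (341 against 161 RPKM, ratio 2.12), phosphoglycerate mutase (46.9 against 24.6 RPKM, ratio 1.90) and glyceraldehyde phosphate dehydrogenase (212 against 119 RPKM, ratio 1.77), all of them in the later, ATP-yielding part of the chain. Smaller ratios were those of aldolase (1.64), hexokinase (1.45), lactate dehydrogenase (1.39), triose phosphate isomerase (1.38), enolase (1.28) and phosphoglucose isomerase (1.27).

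**Figure D3:**
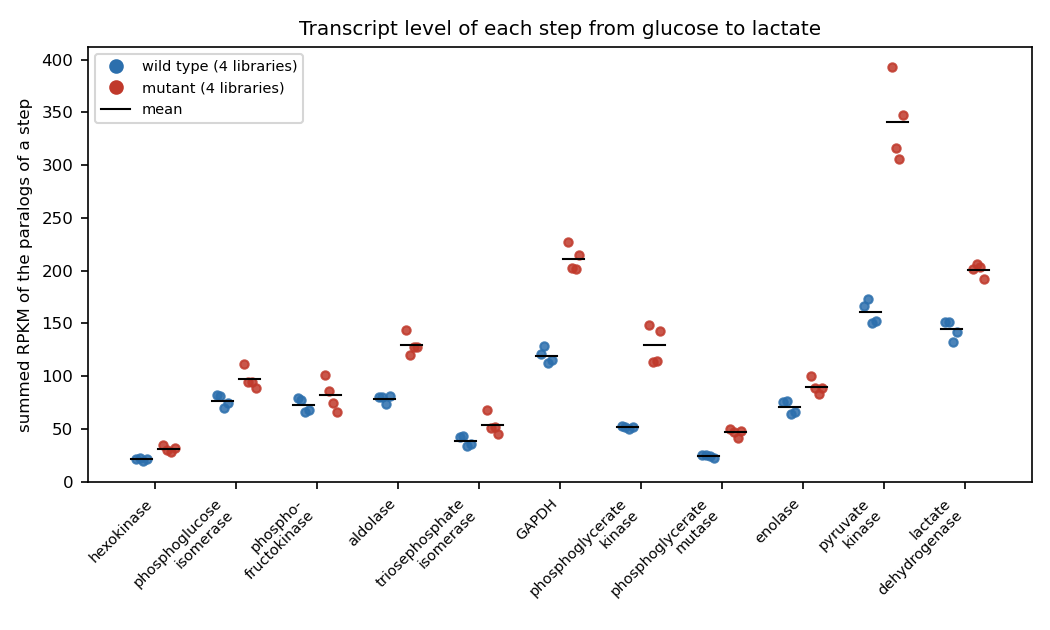
Summed RPKM (linear axis from 0) of the enzymes of each of 11 reactions, in order along the pathway, for each Mutant and wild-type library. The Mutant points lie above all wild-type points at every reaction but phosphofructokinase, and the ratio of the means is largest at phosphoglycerate kinase (2.52).

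*Pgk1* (chrX:106187100-106203699, plus strand), the enzyme of the first ATP-making reaction, had 9884, 7530.0, 7627 and 9517 normalized counts in the Mutant libraries and 3489, 3444, 3357 and 3434 in the wild-type libraries. The wild-type libraries were nearly identical, and the lowest Mutant library was above the highest of them by more than the range of either group. It was 2.52-fold higher (log2 fold change 1.33, SE 0.10, adjusted p = 7.09e-06). *Pkm* (chr9:59656368-59679375, plus strand), the pyruvate kinase outside liver and red blood cells and the most abundant of the 17 enzymes per length, had 58282, 46801, 45350.0 and 51442 normalized counts in the Mutant libraries and 24662, 25644, 22305 and 22646 in the wild-type libraries. It was 2.12-fold higher with no overlap (log2 fold change 1.08, SE 0.10, adjusted p = 2.19e-05). Its alternatively spliced forms are not separated by gene counts.

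*Pgam1*, which moves the phosphate group within phosphoglycerate, had 2714, 2556, 2278 and 2624 normalized counts in the Mutant libraries and 1391, 1391, 1327 and 1239 in the wild-type libraries. Its groups were far apart for their spread, at 1.90-fold (log2 fold change 0.93, SE 0.07, adjusted p = 1.20e-05). *Gapdh*, often taken as a reference gene, had 27804, 24825, 24713 and 26305 normalized counts in the Mutant libraries and 14883, 15756, 13766 and 14113 in the wild-type libraries. It was 1.77-fold higher in Mutant ECs (log2 fold change 0.82, SE 0.08, adjusted p = 2.66e-05), so its level was not constant between these groups.

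*Ldha*, the lactate dehydrogenase subunit common in glycolytic cells, had 19206, 19209, 18653 and 17935 normalized counts in the Mutant libraries and 13104, 13256, 11129.7 and 12469 in the wild-type libraries, 1.50-fold higher without overlap (log2 fold change 0.59, SE 0.08, adjusted p = 0.000191). Of the remaining enzymes, *Aldoa* (1.66-fold, adjusted p = 5.09e-05), *Hk1* (1.47-fold, adjusted p = 0.000736), *Tpi1* (1.38-fold, adjusted p = 0.0126), *Eno1* (1.28-fold, adjusted p = 0.00936) and *Gpi1* (1.27-fold, adjusted p = 0.0112) were higher, each without overlap. *Hk2*, *Pfkl*, *Aldoc* and *Eno2* overlapped between groups and were not called, with log2 fold changes of 0.33, 0.15, -0.58 and -0.02. The main EC forms *Hk1*, *Aldoa* and *Eno1* rose, then, and no call was made for the rarer forms of the same enzymes.

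The phosphofructokinases catalyse the committed reaction of glycolysis, and their 3 genes diverged. *Pfkp*, the platelet form, had 11063, 9139, 7701 and 8106 normalized counts in the Mutant libraries and 5104, 4842, 5161 and 5416 in the wild-type libraries. It was 1.75-fold higher (log2 fold change 0.81, SE 0.11, adjusted p = 0.000238), with Mutant library 1 the highest. *Pfkm*, the muscle form, had 1071, 1119.5, 1028 and 808 normalized counts in the Mutant libraries and 1910.1, 1811, 1627 and 1650.4 in the wild-type libraries. It was 1.74-fold lower (log2 fold change -0.80, SE 0.11, adjusted p = 0.000210), the largest fall among the 39 genes, also without overlap. *Pfkl*, the liver form, had 3648 to 6371 and 3815 to 5102 normalized counts and was not called (adjusted p = 0.491).

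As shares of the summed phosphofructokinase RPKM, *Pfkp* was 39.7% ± 2.97 in Mutant and 25.5% ± 3.14 in wild-type ECs, *Pfkm* was 14.2% ± 1.55 and 27.5% ± 0.514, and *Pfkl* was 46.2% ± 2.74 and 47.0% ± 3.55 (SD, n = 4 each). The first pair and the second did not overlap between groups, each with the smallest p an exact two-sided permutation test allows here, 0.0286, and an adjusted p of 0.0643. For *Pfkl* the exact permutation p was 0.771.

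A similar contrast held in the lactate dehydrogenases. *Ldhb*, the subunit common in cells that use lactate, had 283, 499, 632 and 438 normalized counts in the Mutant libraries and 835, 772, 866 and 708 in the wild-type libraries. It was 1.72-fold lower (log2 fold change -0.78, SE 0.20, adjusted p = 0.00881), with no overlap, while *Ldha* was higher. Its share of the lactate dehydrogenase RPKM was 4.94% ± 1.50 in Mutant and 11.9% ± 1.55 in wild-type ECs (exact permutation p = 0.0286, adjusted p = 0.0643). Neurons express much *Ldhb* and *Pfkm*, and 6 of 9 neuronal and 8 of 8 oligodendrocyte markers tested were lower in the same Mutant libraries; their part in these falls was not tested.

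**Figure D4:**
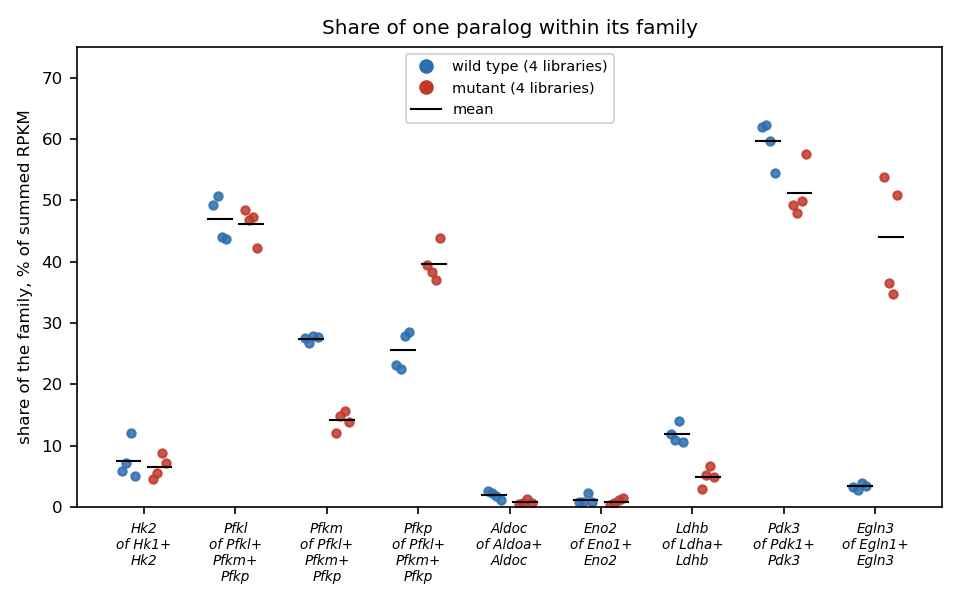
Share of 1 paralog in the summed RPKM of its enzyme family (percent, y axis) in each Mutant and wild-type library, with lines at the group means. *Egln3* (44.0% against 3.38%), *Pfkp*, *Pfkm* and *Ldhb* separate completely, and *Pfkl*, *Hk2*, *Eno2*, *Aldoc* and *Pdk3* overlap.

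The other 4 shares overlapped between groups. *Aldoc* was 0.814% ± 0.394 of the aldolases in Mutant ECs against 1.99% ± 0.604, *Hk2* 6.55% ± 1.83 of the hexokinases against 7.56% ± 3.13, and *Eno2* 0.891% ± 0.450 of the enolases against 1.17% ± 0.753 (SD, n = 4 each). The exact permutation p was 0.0571, 0.657 and 0.629 in that order. *Pdk3* was 51.2% ± 4.32 of the sum of *Pdk1* and *Pdk3* against 59.6% ± 3.67 (exact permutation p = 0.0571).

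Of the 5 regulators, 1 was higher, 1 was lower and 3 were not called, where 44.4% of all genes tested were called. *Pfkfb3*, the bifunctional enzyme whose product activates phosphofructokinase and which is known to drive endothelial glycolysis, had 6201, 5412, 5561 and 5341 normalized counts in the Mutant libraries and 4529.5, 4954, 5827 and 5286 in the wild-type libraries. These overlapped, and it was not called (log2 fold change 0.13, SE 0.09, adjusted p = 0.265). Its relative *Pfkfb2* was 1.49-fold lower, at 294 to 371 against 452 to 509 normalized counts (log2 fold change -0.58, SE 0.10, adjusted p = 0.00126), and *Pfkfb4* was not called (log2 fold change -0.40, adjusted p = 0.165).

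*Pdk1*, a kinase that inactivates pyruvate dehydrogenase and so keeps pyruvate from the mitochondrial cycle, was higher on average (log2 fold change 0.54, SE 0.15, adjusted p = 0.0161). Its Mutant values were 1252, 1389, 1193 and 905 normalized counts and its wild-type values 689, 744, 793 and 1039, so that Mutant library 4 fell below wild-type library 4. *Pdk3*, a kinase of the same family, had a log2 fold change of 0.04 (adjusted p = 0.720).

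**Figure D5:**
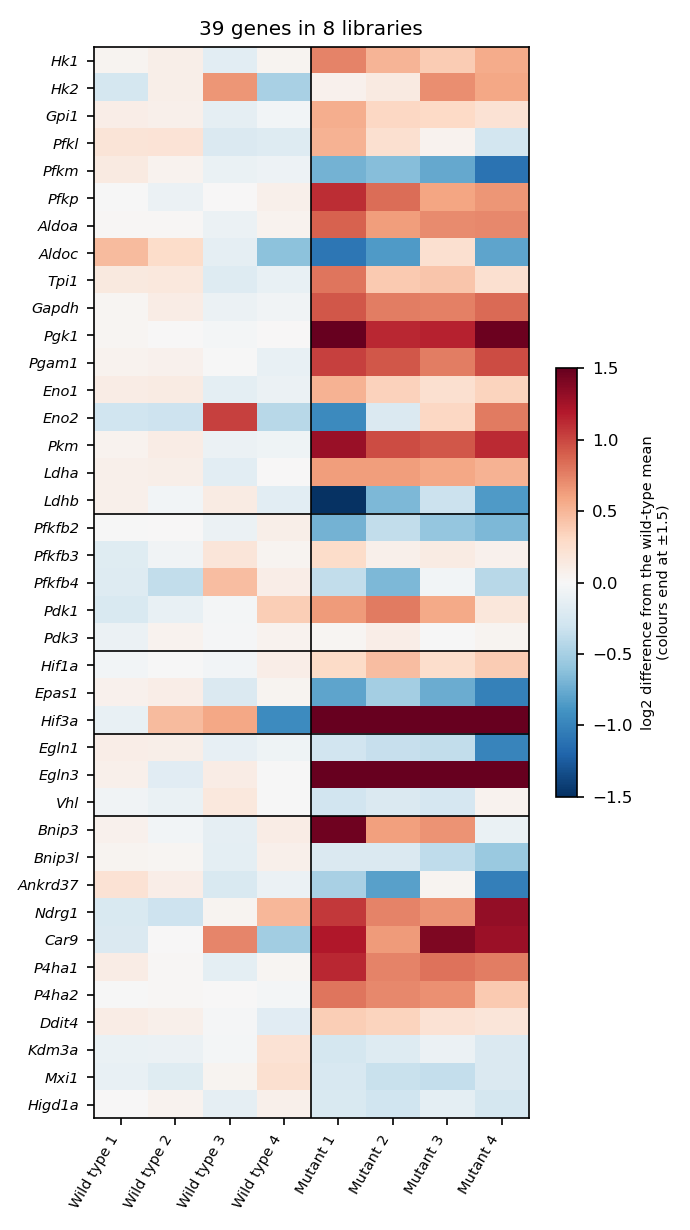
Log2 of the normalized count of each of the 39 genes relative to the mean of the 4 wild-type libraries, for each Mutant and wild-type library, in order of role. The Mutant columns of *Hif3a*, *Egln3*, *Pgk1* and *Pkm* are uniformly high and those of *Epas1*, *Pfkm* and *Ldhb* uniformly low, while *Bnip3* is below the wild-type mean in Mutant library 4 alone. The colour scale is capped, so *Hif3a* and *Egln3* are not to scale.

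Wider lists of the same pathways had lower medians than the 17 enzymes (0.47) and the 11 hypoxia targets (0.27), and that of the transporters was negative. Of 17 tested genes of other glycolytic and pyruvate steps, 4 were higher (23.5%), 4 were lower (23.5%) and 9 were not called, with a median log2 fold change of -0.01. These shares were close to those over all genes tested, 21.5% higher and 22.9% lower. Of 5 glucose and lactate transporters, 1 was higher, 1 was lower and 3 were not called (median -0.34). *Slc16a3*, the lactate exporter of glycolytic cells, was 4.10-fold higher (log2 fold change 2.04, SE 0.23, adjusted p = 8.20e-05). *Slc16a1*, the lactate transporter of the blood-brain barrier, was 3.60-fold lower (20137 ± 8015 against 72441 ± 6998 normalized counts; log2 fold change -1.85, SE 0.25, adjusted p = 0.000261). *Slc2a1*, the glucose transporter of brain ECs, was not called (log2 fold change -0.14, SE 0.11, adjusted p = 0.329).

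Of 11 other genes of the HIF machinery, 3 were higher (27.3%) and 2 were lower (18.2%), with a median of 0.15. Over all genes tested the shares were 21.5% and 22.9%. More than 2-fold was the change of 1 of the 11, *Arnt2*, a neuronal partner subunit, with 49.9 ± 19.6 against 158 ± 62.3 normalized counts (log2 fold change -1.66, SE 0.32, adjusted p = 0.00211). Of 31 other hypoxia targets, 13 were higher (41.9%), 8 were lower (25.8%) and 10 were not called, with a median of 0.09 and a range of -2.75 to 2.19. *Loxl2*, a collagen crosslinking enzyme, was 4.56-fold higher (log2 fold change 2.19, SE 0.09, adjusted p = 2.12e-07), as were the stanniocalcins *Stc1* (3.77-fold) and *Stc2* (3.08-fold). *Tfrc*, the transferrin receptor of the blood-brain barrier and of red cell precursors, was 6.73-fold lower (log2 fold change -2.75, SE 0.40, adjusted p = 0.000397), and *Car12*, another membrane carbonic anhydrase, had 26.9 ± 14.6 against 79.5 ± 64.6 normalized counts (log2 fold change -1.56, SE 0.54, adjusted p = 0.0379).

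The sample descriptions carry 3 different prefixes, whose meaning the labels do not give, 1 shared by replicates 1 and 2 and 1 each for replicates 3 and 4, with both genotypes in each. In the study's methods, wild-type pups were chosen at random within a litter to equal its Mutant pups in number, and the prefixes split the pups in a way that such litters could, but no label ties a prefix to a litter. Within prefixes the sign of the difference was the same in all 3 for 11 of the 12 higher and 3 of 3 lower glycolytic genes, and for 8 of the 9 higher and 5 of 5 lower hypoxia genes. The exceptions were *Pdk1* (log2 ratios 0.88, 0.59 and -0.20) and *Bnip3* (1.02, 0.81 and -0.22). For genes whose groups did not overlap, that separation alone fixes the sign within every prefix. These were 11 higher and 3 lower genes in glycolysis, and 7 higher and 5 lower in the hypoxia response. Agreement of their signs is therefore not separate support. For *Hif3a* the log2 ratios were 4.74, 3.81 and 4.77, for *Egln3* 4.28, 3.44 and 3.91, for *Pgk1* 1.32, 1.18 and 1.47, for *Pkm* 1.05, 1.02 and 1.18, for *Epas1* -0.74, -0.53 and -1.05 and for *Egln1* -0.41, -0.25 and -0.92. With 1 pup of each genotype in the prefixes of replicates 3 and 4, no test within them was possible.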

How the data were processed

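Poly(A) RNA of brain ECs from 4 Mutant and 4 Wild type P9 pups was sequenced, 1 library per pup. The authors trimmed reads with Trimmomatic, aligned them to GRCm38 with STAR and deposited raw counts per gene; the counting program, strand setting and treatment of multimapping reads are not given in the sources used here. The authors also deposited DESeq2-normalized values, which were not used.

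Counts were matched to 49056 symbols of 49315 identifiers. Genes were filtered with filterByExpr (minimum count 10), scaled by TMM and tested with edgeR 4.0.16's quasi-likelihood test in R 4.3.3 with genotype as the only term, with Benjamini-Hochberg adjustment over 16887 genes. The script was tested on simulated data. RPKM used the gene lengths in the count files. Paralog shares were compared by exact two-sided permutation tests (scipy 1.17.1), adjusted over 9 shares. DESeq2 1.42.0, other scaling factors and filters, blocks and leaving out each library were alternatives.

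The genes and lists were chosen with earlier results of these data known. Values per library are given for HIF pathway regulators, Ldha, Pfkfb3 and the genes with the largest called changes in each direction; genes of other lists are named if called and past 2-fold, at most 6 a list, except 1 that is not reported here. Replicates were distinct, with chi-square per degree of freedom of 6.70 to 37.1 between libraries of a group. The 6.70 was between wild-type libraries 1 and 2, which share a description prefix. All other pairs were at 15.9 or more. With 24833373 to 34196955 counts per library, counting error is small for all but the rarest genes (Car9, Hif3a and Egln3 in wild-type ECs, Aldoc, Eno2, Pfkfb4). Retrocopies named after 8 of the genes held at most 0.734% of the parent's counts; other copies were not examined. P-values of the edgeR test rest on the spread among these pups, with the estimate for each gene drawn toward a trend over all genes tested. Those of the permutation tests reach their floor of 0.0286 whenever the groups do not overlap, whatever the spread.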

Additional observations from a re-analysis of the deposited data

Results flagged for a closer look

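In 4 of the 78 groups tested (39 genes, each in 2 genotypes), 1 library lay far from the other libraries of its group; chance alone gives such a gap in about 1 in 20 groups. *Aldoc* had 171 normalized counts in Mutant library 3, where the others had 68.2 to 84.2. *Eno2* had 205 in wild-type library 3, where the others had 75.7 to 81.8. *Egln1* had 1160.0 in Mutant library 4, where the others had 1776 to 1891, and *Vhl* had 611 in the same library, where the others had 484 to 505. Without Mutant library 4 the direction for *Egln1* was the same.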

How the results depend on the processing

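The counts of higher and lower genes in glycolysis (12 and 3) and in the hypoxia response (9 and 5) stayed within 1.5 times their value with DESeq2, other scaling factors, no filter and both blocks. Counts in stricter settings were as follows. Against a 2-fold threshold built into the test (glmTreat), 1 glycolytic gene was higher and not 2, and 2 hypoxia genes and not 3. At an adjusted p below 0.01, 9 glycolytic genes were higher and not 12, and 3 were still lower. At that threshold 6 hypoxia genes were higher and not 9, and 1 was lower and not 5. More than 2-fold higher were then 2 hypoxia genes and not 3. Among genes with a mean of at least 100 counts, the hypoxia group's median log2 fold change relative to wild type was 0.035.

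Leaving out 1 library at a time gave 12 to 13 higher and 3 to 4 lower glycolytic genes, and 7 to 9 higher and 3 to 5 lower hypoxia genes, with medians of 0.34 to 0.44 and 0.23 to 0.33. *Bnip3* lost its call in 7 of 8 cases, *Higd1a* in 6 and *Mxi1* in 5, and *Egln1* without wild-type library 1 or 2. *Eno2*, not called in any setting, ranged from -0.32 to 0.47, and was 0.0011 with the description prefix as a block. *Pdk3* was -0.021 with upper quartile scaling. Differences in paralog share ranged in percentage points from -1.87 to 0.52 for *Pfkl*, -1.83 to 0.50 for *Hk2*, -0.45 to 0.10 for *Eno2*, -1.43 to -0.96 for *Aldoc* and 37.4 to 43.8 for *Egln3*.

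Deviations from the group means correlated positively between same-numbered libraries (0.201, 0.210, 0.290 and 0.0241). They also did so between libraries that share a prefix but not a number (0.165 and 0.253). Between prefixes most correlations were negative, from -0.358 (Mutant library 1, wild-type library 3) to 0.384 (Mutant library 4, wild-type library 3). The main fit took neither the replicate number nor the prefix as a pairing. The study matched genotypes by litter, but no label names the litters; the description prefixes may mark them. With the prefix as a block, 12 glycolytic genes were higher and 3 lower, and 9 hypoxia genes were higher and 7 lower (*Ankrd37* and *Kdm3a* gained calls). With the replicate number as a block, 12 glycolytic and 9 hypoxia genes were higher; *Ankrd37* gained its call (-0.57, adjusted p = 0.0395) and *Higd1a* lost it (-0.24, adjusted p = 0.0524). Not every library correlated best with its own number.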
